A study of Mus musculus with 2 samples.

Results

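Eln, Fbn1, Fbln1, Fbln2, Fbln5, Emilin1, Mfap4 and Mfap5 encode proteins of the elastic fibre, and they are described here in single cells of the mouse leptomeninges, across the fibroblast layers, the arterial endothelium and the mural cells. They are 8 of the 32287 features listed for each library and were taken by gene symbol as members of this family. RNA was measured in 2 droplet libraries, R1 and R2, prepared from leptomeninges that had been taken off the cerebral hemispheres of Pdgfra-H2BGFP mice of either sex at the age of 3 months. Pdgfra-H2BGFP is a reporter that places a nuclear green fluorescent protein under the control of Pdgfra, a receptor gene of fibroblasts. All animals carried it, and the labels name no sort on it. The libraries form 1 group, with neither treatment nor second genotype, so each comparison sets a cell class against other classes within the libraries (n = 2). Nothing in the labels tells if R1 and R2 are different animals. The p-values measure only how differences between classes vary between these libraries, a spread that may be technical. It was estimated in 1 fit over 13 classes, among them classes that enter no comparison.

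An elastic fibre has a core of cross-linked elastin on a scaffold of fibrillin microfibrils. Fibulins and emilin sit between core and scaffold and help elastin to deposit, microfibril-associated proteins bind the scaffold, and lysyl oxidases join the elastin chains. These fibres give arteries their recoil, where they form the internal elastic lamina beneath the endothelium, and smooth muscle cells are the textbook source of arterial elastin.

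The filters kept 2985 cells in R1 and 3035 in R2. These held 7629128 and 6270141 UMIs, the unique molecular identifiers that tag captured transcripts, at medians of 1643 and 1249 UMIs per cell. The doublet caller marked 3 cells in each library, about 0.1% in either, so it did not work here and doublets remain. Barcode sequences shared by the libraries numbered 93, of which 74 were among the kept cells. The deepest venous-like cells held 13966, 12381 and 11157 UMIs in R1, and 14483, 12887 and 11686 UMIs in R2. Whether the shared barcodes are the same cells counted in both libraries was not tested. If they are, the R1 and R2 sums of a class, above all the venous-like class, are not separate replicates. Levels are CPM, the UMIs of a gene scaled by all UMIs of a class, and stand for R1 and then R2.

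The named classes were 273 pial and perivascular fibroblast-like (called pial below), 683 inner arachnoid fibroblast-like, 76 arachnoid barrier-like, 893 dural border-like, 99 mural-like, 136 arterial-like endothelial and 184 venous-like endothelial cells. A cluster of 131 endothelial cells scored highest for capillary markers but took no name, because its 10 leading genes held 3 globin genes and only 2 capillary markers, besides the mural genes Vtn and Rgs5. A further 1013 fibroblast-like cells took no layer name. The defining arterial markers Gkn3 (1723 and 2100 CPM), Bmx (967 and 829) and Gja5 (223 and 177) were high in the arterial-like class, where the 14 mural markers summed to 273 and 508 CPM, against 24180 and 21367 CPM in mural-like cells, and Kcnj8, Abcc9, Higd1b, Cspg4, Cnn1, Lmod1 and Tpm2 were at 0 in both libraries. The 8 genes and the other genes of the pathway were left out of the genes that drew the clusters, whereas co-varying genes stayed in.

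Eln, the elastin gene, was highest in arterial-like endothelial cells, where it reached 4338 CPM in R1 and 4167 CPM in R2 (350 and 377 UMIs). The next level among the named classes, 436 and 413 CPM, was that of mural-like cells. Pial cells had 123 and 99.7 CPM, venous-like cells 75.1 and 140 CPM, and the capillary-scoring cluster 120 and 54.7 CPM. These last 3 classes overlapped, and the other fibroblast layers lay lower, between 15.1 and 33.7 CPM in each library. In R1, 16 of the 33 Eln UMIs of the capillary-scoring cluster came from 1 cell, without which the cluster had 62.5 CPM. Microglia-like cells, a class that should lack Eln, had 5.28 and 3.84 CPM from 3 and 1 UMIs. The arterial-like class held 56.2% of the Eln UMIs of the kept cells of R1 and 64.6% of those of R2, in 2.11% and 2.41% of the cells.

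Fbn1, which encodes fibrillin-1, the main protein of the microfibril scaffold, was spread over the fibroblast layers and the arteries. Arterial-like cells had 161 and 66.3 CPM, from 13 and 6 UMIs. Dural border-like cells had 64.7 and 63.7 CPM, pial cells 49.8 and 42.7 CPM, barrier cells 63.8 and 16.8 CPM and inner arachnoid cells 17.4 and 26.1 CPM. Mural-like cells had 1 UMI in each library, so that the scaffold gene was near the limit of detection in them.

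The 3 fibulin genes had unlike patterns. Fbln5, whose product tethers elastin to cells and guides its deposition, reached 2392 and 2587 CPM in arterial-like cells, against 207 and 180 CPM in pial cells and between 71.9 and 78.6 CPM in the inner arachnoid and dural border layers. Barrier cells and mural-like cells had between 1 and 3 Fbln5 UMIs per library, and venous-like cells had 0 and 1. Fbln2, which encodes a larger fibulin of vessel basement membranes, had 446 and 398 CPM in arterial-like cells (36 UMIs in each library). Fbln2 was at 33.2 CPM or less in every other class of the fit in both libraries. Fbln1, which encodes a fibulin of fibroblast matrix and basement membranes, was by contrast a gene of the fibroblast layers, with 717 and 744 CPM in dural border-like cells, 440 and 380 in pial cells, 316 and 303 in inner arachnoid cells and 255 and 270 in barrier cells. The 4 layers did not overlap in Fbln1, while arterial-like cells (149 and 66.3 CPM) and mural-like cells (27.2 and 182 CPM) overlapped.

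Promoter sequences of 5 of the 8 genes were matched in RefSeq (GRCm38.p6), and 3 fibulin promoters are shown because these genes share a protein family and differ in where they are expressed. Each is the 250 bases before a transcription start of RefSeq, 5' to 3' on the gene's own strand. RefSeq's starts differ from the ends of the genes in the mm10 annotation given last: the Fbln2 window lies inside that gene's span, and the Fbln5 window does not abut its gene. Capitals mark the GC box GGGCGG (either strand, so also CCGCCC) in Fbln5 and Fbln2, and the palindromic E-box CACGTG in Fbln1, and no marked match overlaps another.
Fbln5, chr12:101819120-101819369, minus strand: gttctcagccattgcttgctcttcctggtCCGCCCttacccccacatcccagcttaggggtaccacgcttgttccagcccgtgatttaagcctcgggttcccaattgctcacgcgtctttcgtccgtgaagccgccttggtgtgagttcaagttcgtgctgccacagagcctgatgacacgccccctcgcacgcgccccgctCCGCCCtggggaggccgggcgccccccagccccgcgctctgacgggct
Fbln2, chr6:91212514-91212763, plus strand: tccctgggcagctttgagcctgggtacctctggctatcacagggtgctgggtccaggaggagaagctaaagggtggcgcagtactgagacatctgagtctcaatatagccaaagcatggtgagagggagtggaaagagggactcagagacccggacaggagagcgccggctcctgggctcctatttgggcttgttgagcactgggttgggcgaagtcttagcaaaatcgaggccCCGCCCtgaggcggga
Fbln1, chr15:85205699-85205948, plus strand: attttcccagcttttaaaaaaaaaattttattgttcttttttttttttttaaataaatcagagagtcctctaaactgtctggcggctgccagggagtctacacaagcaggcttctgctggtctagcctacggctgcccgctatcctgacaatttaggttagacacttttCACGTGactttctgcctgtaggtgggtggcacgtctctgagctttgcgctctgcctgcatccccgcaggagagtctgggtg

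The Fbln5 promoter holds 2 GC boxes and the Fbln2 promoter 1, and 32.7% of 32851 promoters of the same length hold at least 1. The Fbln1 promoter holds 1 E-box, as do 6.02% of the promoters. A TATA box (TATAAA, in 12.4% of promoters) and an AP-1 site (TGACTCA, in 4.46%) were also searched on either strand, and neither was found in the windows of Fbn1, Emilin1, Fbln1, Fbln2 and Fbln5. The GC content of the windows shown was 65.2% for Fbln5, 58.8% for Fbln2 and 46.4% for Fbln1, against a median of 52.4% over the promoters. Fbln5 has a second RefSeq start with 0 of these motifs, and a second start of Fbln1 adds 1 GC box to the same E-box. At these second starts the GC content was 49.6% for Fbln5 and 62.4% for Fbln1, so the order of these genes depends on the start. A match of letters shows no binding.

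Emilin1, which encodes a glycoprotein at the interface of elastin and microfibrils, was highest in dural border-like cells (168 and 202 CPM) and pial cells (147 and 128 CPM). Arterial-like cells had 86.8 and 55.3 CPM, inner arachnoid cells 58.8 and 81.2 CPM, mural-like cells 68.1 and 0 CPM, and barrier cells 31.9 and 33.7 CPM. The dural border and pial layers did not overlap, and the arterial-like and inner arachnoid classes did. Mfap4 and Mfap5, genes of microfibril-associated proteins, were low throughout. Mfap4 had 62.9 and 38.0 CPM in pial cells, 50.1 and 49.5 in inner arachnoid cells, 29.2 and 10.9 in dural border-like cells, and 0 UMIs in arterial-like and venous-like cells of either library, where 0 counts allow up to 37.2 and 33.2 CPM in arterial-like cells. Of the 42 Mfap4 UMIs of dural border-like cells in R1, 16 came from 1 cell. Mfap5 was highest in the pial (23.6 and 42.7 CPM), dural border (20.9 and 44.7) and barrier (31.9 and 33.7) layers, and inner arachnoid cells had 6.54 and 1.38 CPM from 3 and 1 UMIs.

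**Figure D1:**
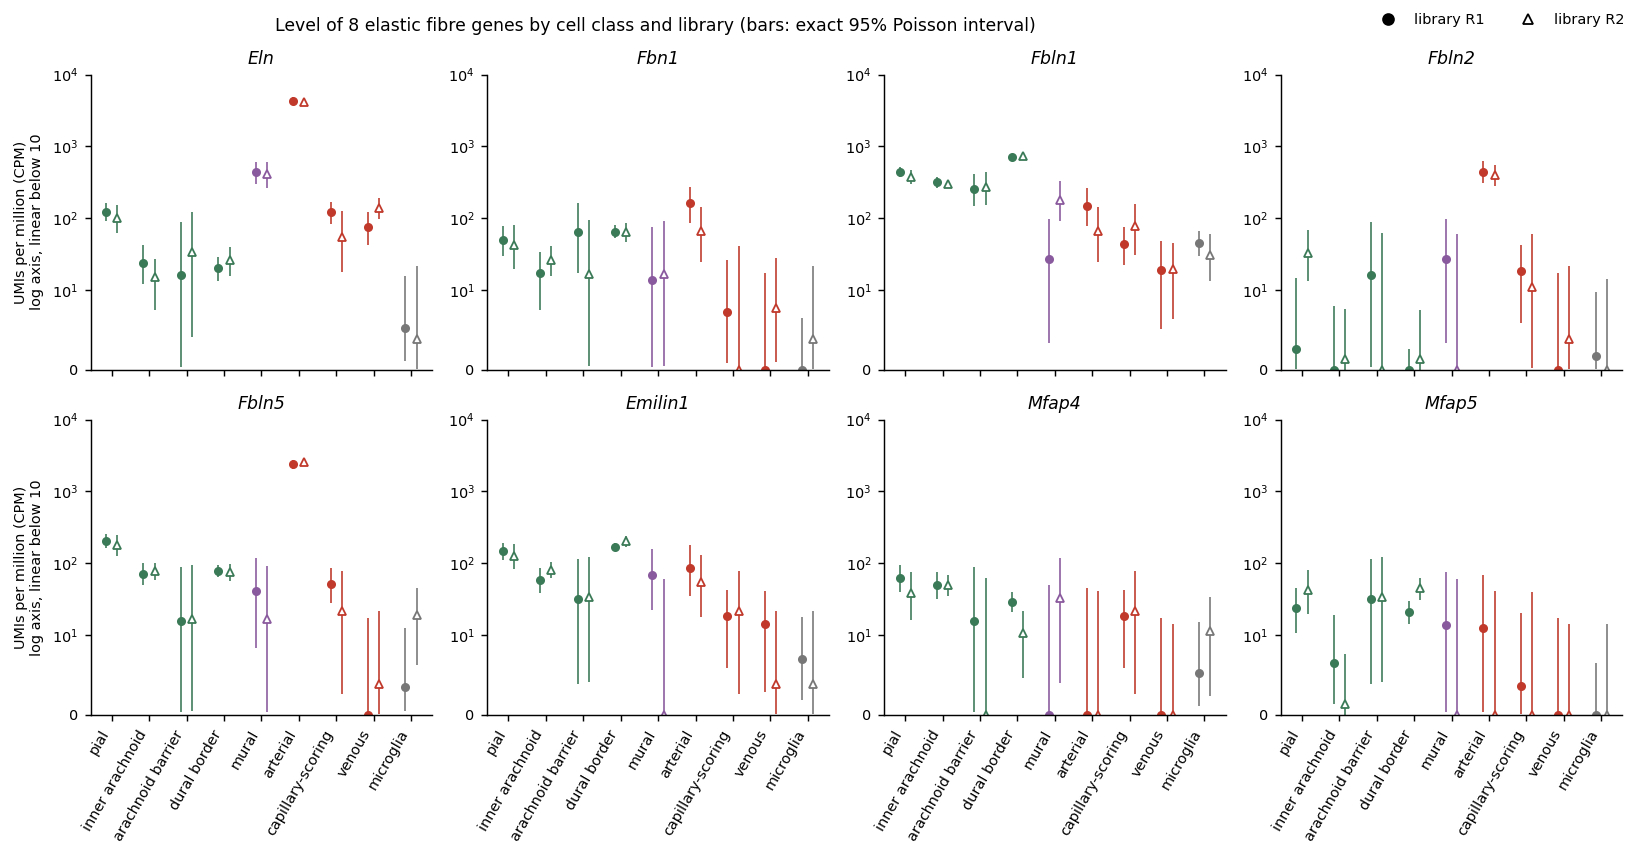
Level of each of the 8 genes (CPM, log axis that is linear below 10) in 9 cell classes, with filled circles for R1, open triangles for R2 and bars for exact 95% Poisson intervals, which cover counting error only. Eln and Fbln5 stand at 4338 and 4167 CPM and at 2392 and 2587 CPM in arterial-like cells, Fbln2 is near 0 outside that class, and Fbln1, Emilin1, Mfap4 and Mfap5 are highest in a fibroblast layer.

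The first comparison asks which of these genes mark the arterial endothelium. Relative to the mean of the capillary-scoring and venous-like classes, 6 of the 8 genes rose in arterial-like cells and none fell, where 9.54% of the 9466 genes tested were called in either direction (4.22% higher and 5.32% lower) by edgeR's quasi-likelihood test at an adjusted p (Benjamini-Hochberg) under 0.05. The median log2 fold change of the 8 genes was 3.37, against -0.06 over all genes tested, and Mfap4, at 0 UMIs in arterial-like cells, lies below that median. Eln had 4338 and 4167 CPM in arterial-like cells, and 97.6 and 97.4 CPM in the other endothelium, a log2 fold change of 5.17 ± 0.22 (SE) with an edgeR adjusted p of 2.14e-121. Fbln5 had the largest change of the 8, at 7.75 ± 0.32 (SE, edgeR adjusted p = 9.45e-128), against 25.5 and 12.9 CPM in the other endothelium. Fbln2, which differed by 5.87 ± 0.60 (SE, edgeR adjusted p = 2.45e-20), had 9.09 and 7.42 CPM there. In neither library did the classes overlap in these genes. Single capillary-scoring cells of R1 held 16 of that cluster's 33 Eln UMIs and 9 of its 14 Fbln5 UMIs. Fbln5 and Eln were also the leading genes of the arterial-like cluster by fold, and the calls of Eln, Fbln5, Fbln2 and Fbn1 held under each of the 16 alternatives. Among these, 1 formed the classes on a random part of each cell's UMIs and tested the remaining UMIs of the same cells. Over the 16 alternatives the change ran between 4.51 and 8.38 for Eln, 6.41 and 9.79 for Fbln5, 4.73 and 7.33 for Fbln2 and 3.63 and 6.49 for Fbn1. With at least 50 cells per class and library, the other endothelium was the venous-like class alone, whose R1 and R2 sums may share cells.

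Fbn1 rose by 4.29 ± 0.73 on the log2 scale (SE, edgeR adjusted p = 2.68e-07), with 161 and 66.3 CPM in arterial-like cells, set against 3.64 and 3.89 CPM in the other endothelium. Emilin1 rose by 2.25 ± 0.67 (SE, edgeR adjusted p = 0.0124), and that call was lost with at least 600 genes per cell and classes formed anew (adjusted p = 0.458) and with a second arterial-scoring cluster joined (0.20). Fbln1 passed at 1.56 ± 0.51 (SE, edgeR adjusted p = 0.029), with 149 and 66.3 CPM in arterial-like cells, set against 31.2 and 48.0 CPM in the other endothelium, and lost the call under 6 of 16 alternatives (adjusted p between 0.052 and 0.54). In the capillary-scoring cluster alone Fbln1 was at 43.65 and 76.6 CPM, above the arterial-like class in R2. Microglia-like cells had 45.8 and 30.7 CPM of Fbln1, and the 11 fibroblast markers summed to 12394 and 34089 CPM in arterial-like cells, against 102195 and 120672 CPM in pial cells. At an equal depth of 1000 UMIs per cell, Fbln1 was found in 18.6% and 4.76% of arterial-like cells, against 4.35% and 0% of microglia-like cells. The part of fibroblast RNA in the arterial Fbln1 and Emilin1 values was not tested. Mfap4 and Mfap5 did not pass, with at most 1 UMI per library in arterial-like cells.

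A second cluster of 72 endothelial cells that scored highest for arterial markers took no name, and Acta2 and Tagln, genes of smooth muscle, led it. Eln was at 279 and 201 CPM and Fbln5 at 252 and 238 CPM in it, below the arterial-like class and above venous-like cells in both libraries. With this cluster joined to the arterial-like class, the changes of Eln (4.51), Fbln5 (7.14), Fbln2 (5.22) and Fbn1 (3.63) still passed. A larger unnamed endothelial cluster of 113 cells, led by Igfbp5 and genes of dural border cells such as Slc47a1, had more Eln, at 407 and 466 CPM, with Fbln5 at 228 and 167 CPM and Fbln2 at 65.2 and 47.8 CPM. It entered no comparison.

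In single cells Eln was found in nearly all arterial-like cells. At the same equal depth, 93.0% of the 43 arterial-like cells deep enough in R1 had an Eln UMI (exact 95% binomial interval 80.9 to 98.5) and 90.5% of the 42 in R2 (77.4 to 97.3). Of these class members, 20 and 31 were too shallow to enter. Microglia-like cells had Eln in 0 of 138 and 0 of 69 cells, which allows shares of cells with a UMI of up to 2.17% and 4.35% by the limit of 3 counts. Without thinning, 3 of 181 and 1 of 98 microglia-like cells had an Eln UMI. Of arterial-like cells not thinned, 61 of 63 and 67 of 73 had Eln, with a median of 4 UMIs in both libraries and a highest cell of 19 and 27. Fbln5 was found in 79.1% and 88.1% of the arterial-like cells at equal depth, against 0.725% and 2.90% in microglia-like cells, and Fbln2 in 34.9% and 23.8%, against 0.725% and 0%. Eln and Fbln5 were found together in 32 of 43 and 35 of 42 cells, so that most arterial-like cells carried both transcripts.

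**Figure D2:**
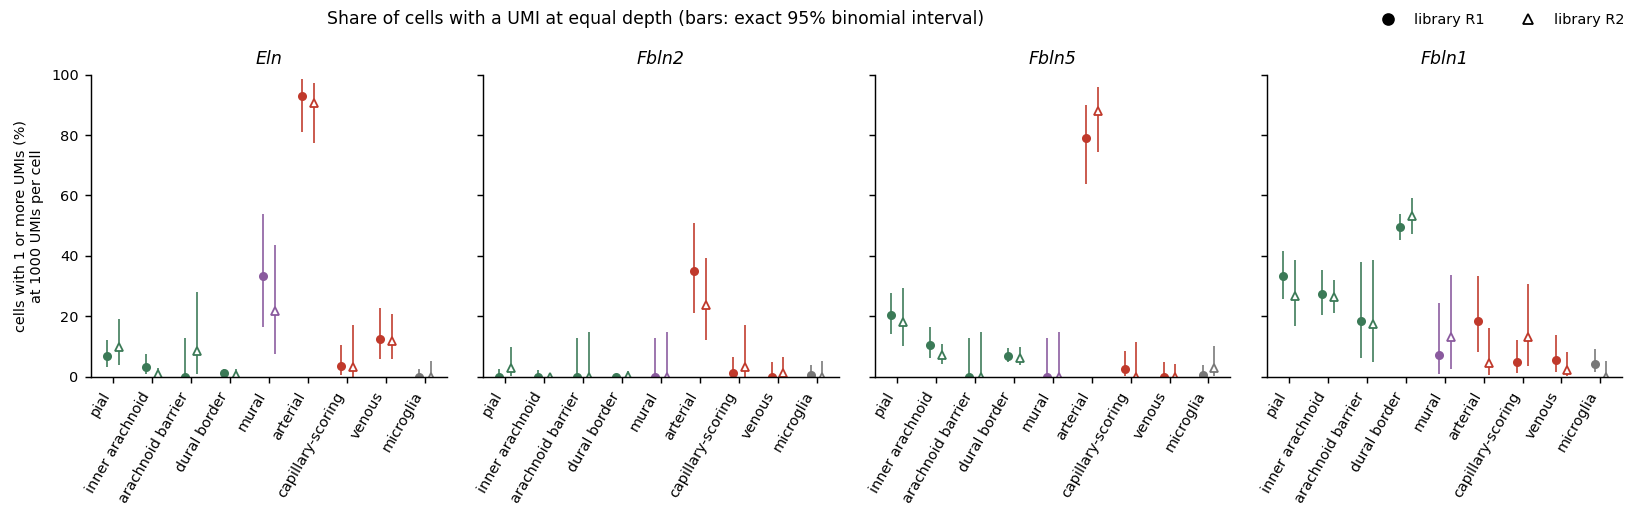
Percent of cells with at least 1 UMI of Eln, Fbln2, Fbln5 or Fbln1 after thinning to 1000 UMIs per cell, by class, with filled circles for R1, open triangles for R2 and bars for exact 95% binomial intervals (counting error only). Eln and Fbln5 are in 79.1% or more of arterial-like cells of both libraries, and Fbln1 is most frequent in dural border-like cells, at 49.5% and 53.3%.

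Venous-like cells had Eln with hardly any Fbln5. They held 16 and 36 Eln UMIs but 0 and 1 Fbln5 UMIs, where arterial-like cells held 350 and 377 Eln UMIs with 193 and 234 of Fbln5, so the genes' counts were in another ratio than in the arterial-like class. The Eln UMIs lay mainly in the venous-like cluster led by Adgrg6, Aplnr and Vwf, at 171 and 246 CPM. The other venous-like cluster, led by Lcn2 and Lrg1, had 7.97 and 38.2 CPM.

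Mural-like cells, which hold smooth muscle cells and pericytes, were set against the arterial-like endothelium. In that comparison 4 of the 8 genes fell and none rose, where 9.77% of all genes tested were called in either direction (4.67% higher and 5.10% lower), and the median log2 fold change was -1.91 for the 8 genes and -0.005 for all. Eln fell by 3.34 ± 0.27 on the log2 scale (SE, edgeR adjusted p = 1.14e-32). Fbln5 had 40.8 and 16.5 CPM in mural-like cells, from 3 and 1 UMIs, set against 2392 and 2587 CPM in arterial-like cells (edgeR adjusted p = 3.03e-46). Fbln2 had 27.2 CPM in R1, from 2 UMIs with an exact 95% Poisson interval of 3.30 to 98.4 CPM, and 0 UMIs in R2 (edgeR adjusted p = 4.01e-07). These 3 genes did not overlap between the classes, and their calls held under each of the 15 alternatives that could be fitted, with Eln between -3.82 and -2.63. Fbn1 passed with 1 UMI in each mural-like sum (edgeR adjusted p = 0.0258) and lost its call under 7 of the 15 (adjusted p between 0.0541 and 0.491). Fbln1, Emilin1, Mfap4 and Mfap5 did not pass, and Fbln1 had 27.2 and 182 CPM in mural-like cells, where the 11 fibroblast markers summed to 17441 and 39348 CPM. The part of fibroblast RNA in that difference between the libraries was not tested.

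Per cell, at equal depth, an Eln UMI was found in 33.3% of the 27 mural-like cells of R1, with an exact 95% binomial interval of 16.5 to 54.0%, and in 21.7% of the 23 of R2 (7.46 to 43.7%), and without thinning 15 of 49 and 11 of 50 cells had one. These shares alone do not tell few cells with much Eln from many with little. Without thinning, 2 cells of R1 and 1 of R2 had 5 or more Eln UMIs. The highest cell held 9 of the 32 UMIs of R1 and 5 of the 25 of R2. Without that cell the mural-like class had 318.5 and 336.3 CPM. A mural-like cluster led by globin genes and Myom1, which took no subtype name, held 15 of the 32 and 21 of the 25 Eln UMIs, at 912 and 1070 CPM. Its score was highest for smooth muscle markers, at 0.23, where a name needed 0.5, and was -2.19 for pericyte markers. The smooth muscle-like cluster, whose leading genes include the endothelial genes Cldn5 and Podxl, had 266 and 37.4 CPM, from 10 and 1 UMIs, and the pericyte-like cluster had 361 and 212 CPM, from 7 and 3 UMIs. With 11 to 24 cells of each cluster in a library these were not tested. Endothelial markers summed to 1661 and 727 CPM in mural-like cells, against 23449 and 24671 CPM in arterial-like cells, and arterial markers to 1035 and 330 CPM, against 6469 and 6433. Their part in the mural Eln level was not tested.

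**Figure D3:**
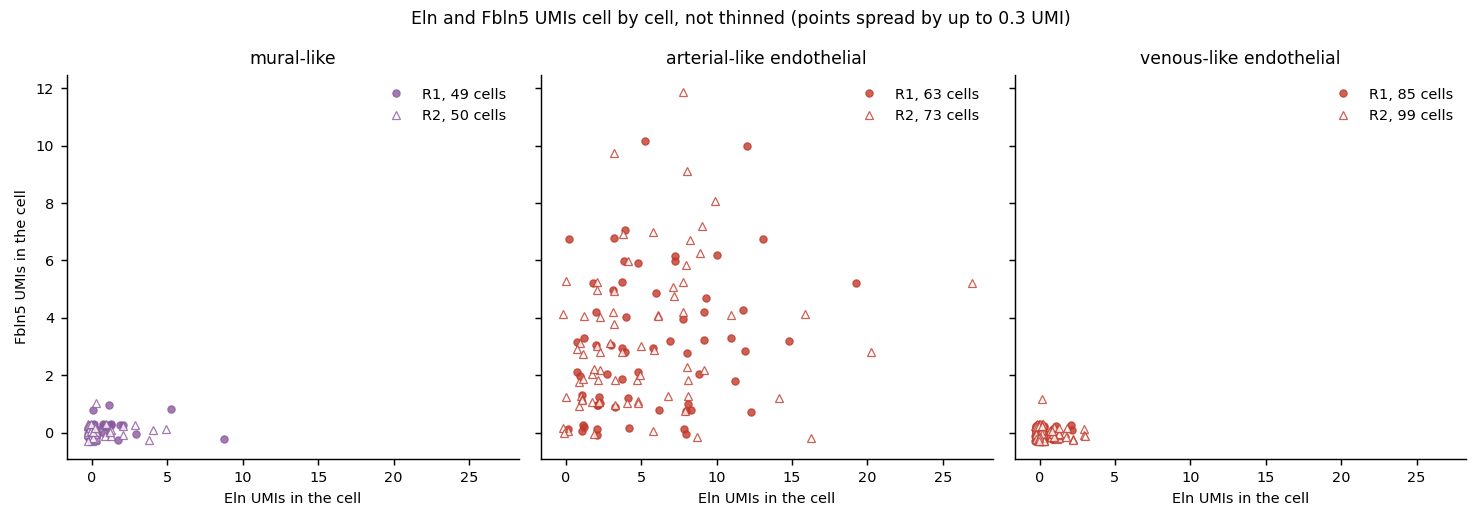
Eln UMIs (horizontal axis) and Fbln5 UMIs (vertical axis) in each mural-like, arterial-like and venous-like cell, not thinned, with filled circles for R1 and open triangles for R2 and points spread by up to 0.3 UMI. Arterial-like cells carry both genes, up to 27 Eln and 12 Fbln5 UMIs, while mural-like and venous-like cells with Eln, up to 9 and 3 UMIs, have at most 1 Fbln5 UMI.

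Set against the mean of the arterial-like and mural-like classes, the vascular wall here, the 4 fibroblast layers had lower Eln, Fbln2 and Fbln5 and higher Fbln1. That is 3 genes lower and 1 higher of 8, where 15.1% of all genes tested were called in either direction (8.30% higher and 6.75% lower). The median log2 fold change was 0.53 for the 8 genes and 0.13 for all. The log2 fold change was -5.20 ± 0.24 for Eln (SE, edgeR adjusted p = 2.12e-96), with 45.8 and 43.6 CPM in the layers set against 2387 and 2290 CPM in the wall. For Fbln1 it was 2.10 ± 0.27 (SE, edgeR adjusted p = 3.35e-13), with 432 and 424 CPM in the layers set against 88.0 and 124 CPM in the wall. Both held under each of the 16 alternatives, Eln between -6.62 and -4.77 and Fbln1 between 1.997 and 2.79. Fbln5 (-1.91 ± 0.57, SE, edgeR adjusted p = 0.00844) and Fbln2 (-4.47 ± 1.17, SE, edgeR adjusted p = 0.0018) lost the call under 4 and 2 of them. With the 5% of cells of highest doublet score left out and the classes formed anew, which put 1851 cells in the dural border-like class in place of 893, neither passed (edgeR adjusted p = 0.194 and 0.0935). The high Fbln5 and Fbln2 values of the wall were those of the arterial-like class, since mural-like cells had 4 and 2 UMIs of these genes in all.

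Within the fibroblast layers, pial and perivascular fibroblast-like cells, the cells nearest the brain surface and its penetrating vessels, had the most elastin transcript. Eln, Fbln5, Fbln2 and Emilin1 rose relative to the mean of the other 3 layers, 4 of 8 genes with none lower, where 11.0% of all genes tested were called in either direction (7.11% higher and 3.91% lower). The median log2 fold change was 1.22 for the 8 genes and 0.06 for all. Eln rose by 2.43 ± 0.35 on the log2 scale (SE, edgeR adjusted p = 2.14e-10), with 123 and 99.7 CPM in pial cells, set against 20.03 and 24.9 CPM in the other layers, and Fbln5 by 2.15 ± 0.32 (SE, edgeR adjusted p = 6.45e-10), with 207 and 180 CPM, set against 55.5 and 56.1 CPM. Both calls held under each of the 16 alternatives, but the size moved, for Eln between 2.02 and 3.89 and for Fbln5 between 0.65 and 2.52. The 5 settings in which no barrier class entered the fit gave Fbln5 values of 1.28 or less. The pial Eln was found in 29 of 166 and 14 of 107 cells, and 1 cell held 13 of the 47 UMIs of R1. Without the highest cell of each library it was at 89.5 and 85.8 CPM, still above each other layer.

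The remaining pial calls were less firm. Fbln2 had 1 UMI in R1 and 7 in R2, or 2.62 and 33.2 CPM, against 5.31 and 0.91 CPM in the other layers (log2 fold change 2.91 ± 0.96, SE, edgeR adjusted p = 0.0253). R1 alone gave a difference of -0.01 and R2 alone 2.49, so the call rests on R2. Emilin1 rose by 0.95 ± 0.32 (SE, edgeR adjusted p = 0.0329) and lost the call under 10 of the 16 alternatives (adjusted p between 0.0571 and 1). Fbln1, Fbn1, Mfap4 and Mfap5 did not pass, with log2 fold changes of 0.14, 0.30, 1.36 and 1.08. The arterial markers summed to 288 and 233 CPM in pial cells, and smooth muscle markers to 333 and 214 CPM. Of the arterial markers Gja5, Sema3g and Gkn3 were at 0 in both libraries, and others of that list carried the sum. The 14 mural markers summed to 7401 and 5970 CPM in pial cells, nearly all of it from Vtn (6977 and 5667 CPM), which also leads the pial cluster, while Abcc9, Higd1b and Cnn1 were at 0 in both libraries. The part of arterial or mural RNA in the pial Eln level was not tested.

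**Figure D4:**
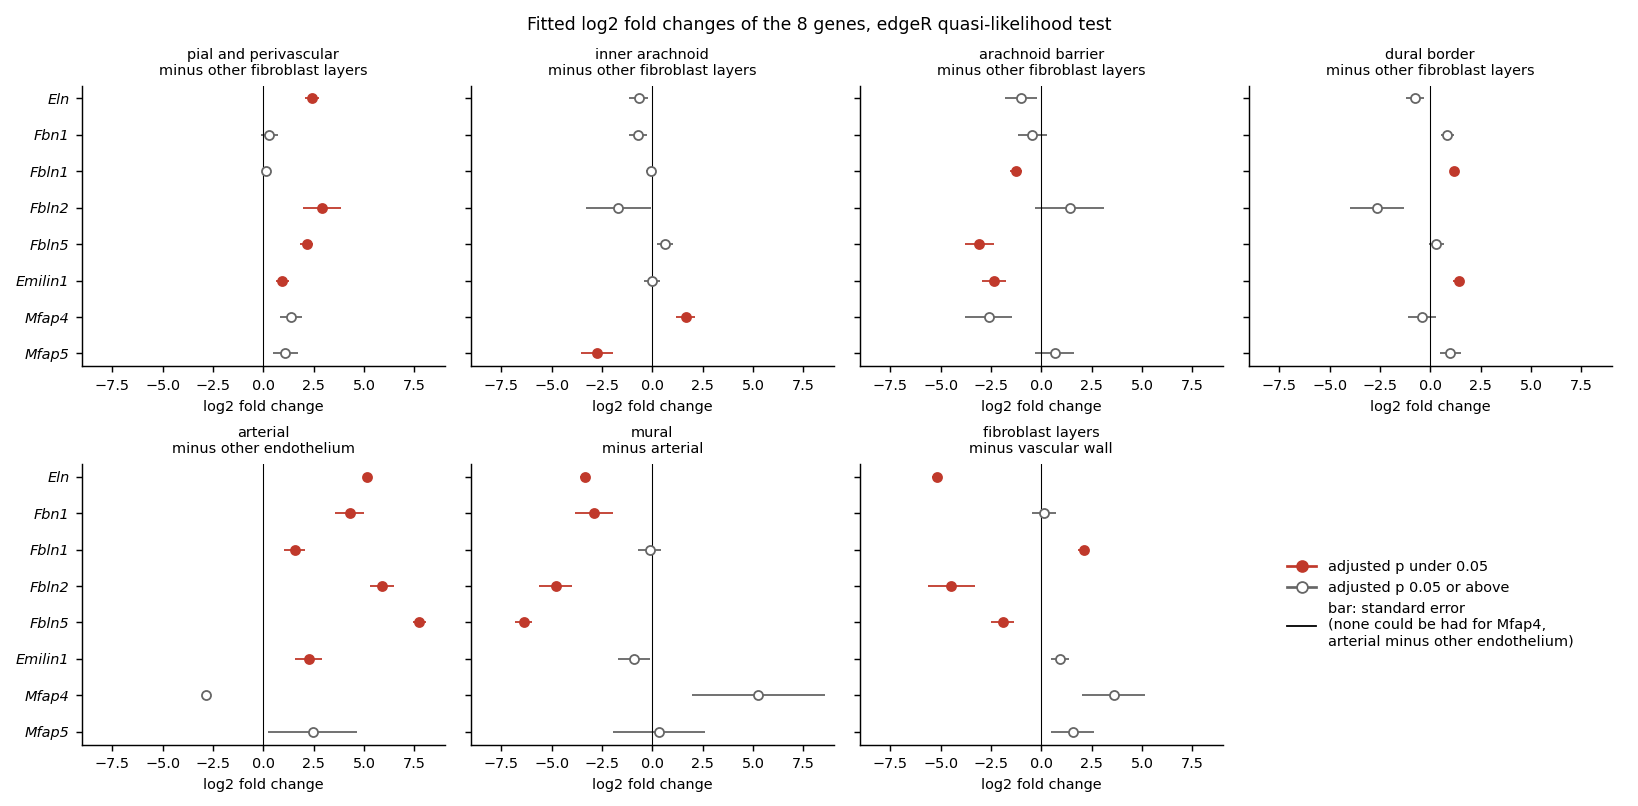
Fitted log2 fold changes of the 8 genes in 7 comparisons, with bars for standard errors, filled red for an edgeR adjusted p under 0.05 and open grey otherwise. Mfap4 had 0 UMIs in arterial-like cells, so its fitted values against that class have no readable size. Eln and Fbln5 are higher in arterial-like cells by 5.17 and 7.75 and in pial cells by 2.43 and 2.15, and Fbln1 is higher in dural border-like cells by 1.18.

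Dural border-like cells, the outermost layer here, had more Fbln1 and Emilin1 than the mean of the other layers. These were the 2 of 8 genes that rose, and none fell, where 16.2% of all genes tested were called in either direction (12% higher and 4.18% lower). The 2 of 8 are close to that share, and the median log2 fold change was 0.57 for the 8 genes and 0.23 for all. Fbln1 rose by 1.18 ± 0.18 on the log2 scale (SE, edgeR adjusted p = 1.97e-09), with 717 and 744 CPM in dural border-like cells, set against 337 and 317 CPM in the other layers. Emilin1 rose by 1.40 ± 0.27 (SE, edgeR adjusted p = 3.44e-06), with 168 and 202 CPM, set against 79.2 and 81.0 CPM. Both held under each of the 16 alternatives, Fbln1 between 0.77 and 1.40 and Emilin1 between 0.57 and 1.75. At equal depth Fbln1 was found in 49.5% and 53.3% of dural border-like cells, against 4.35% and 0% of microglia-like cells, and Emilin1 in 13.1% and 20.7%, against 0.725% and 0%. Fbn1 (64.7 and 63.7 CPM) did not pass, with an edgeR adjusted p of 0.0628. The fibroblast-like cells with no layer name, which stand outside this comparison, had 644 and 538 CPM of Fbln1, more than any other named layer. Their Emilin1 was at 120 and 98.8 CPM.

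Inner arachnoid cells had less Mfap5 and more Mfap4 than the mean of the other layers. These were the calls among the 8 genes, 1 higher and 1 lower, where 14.0% of all genes tested were called in either direction (9.68% higher and 4.34% lower). The median log2 fold change was -0.38 for the 8 genes and 0.08 for all. Mfap5 had 6.54 and 1.38 CPM, set against 25.5 and 40.4 CPM (log2 fold change -2.74 ± 0.80, SE, edgeR adjusted p = 0.00787), and Mfap4 had 50.1 and 49.5 CPM, set against 36.0 and 16.3 CPM (1.65 ± 0.48, SE, edgeR adjusted p = 0.00759). The difference in Mfap4 was 0.89 in R1 and 2.14 in R2. It is fitted on mean log levels, in which the barrier layer, with 1 and 0 Mfap4 UMIs, weighs as much as each other layer, so it exceeds the ratio of the mean CPM, and pial cells of R1 had more Mfap4 (62.9 CPM) than inner arachnoid cells. The Mfap4 call was lost under 4 of 15 alternatives, and Mfap5 was tested, and lower, in 9. The median share of Malat1, a nuclear transcript, was 0.164% and 0.104% in inner arachnoid cells, against 4.12% and 4.89% in pial cells and 6.99% and 7.76% in dural border-like cells. With cells under 1% Malat1 left out, Mfap4 no longer passed (1.57, edgeR adjusted p = 0.0751) and Mfap5 did not pass the filter on low counts.

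The arachnoid barrier is an epithelioid layer joined by tight junctions. In the cluster named for it 5 genes of the barrier marker list had a UMI. Of these, 2 were among its leading genes, Dpp4 (1004 and 1011 CPM) and Cldn11 (2615 and 1651 CPM). Cdh1, also on that list, was instead a leading gene of another fibroblast-like cluster, of 136 cells, in the broad clustering. Barrier cells were low in 3 of the 8 genes and high in none, where 5.50% of all genes tested were called in either direction (2.27% higher and 3.23% lower). The median log2 fold change was -1.12 for the 8 genes. Over all genes it was -0.35 with TMM normalization and -0.01 with RLE normalization, a shift that bears on the values that follow. In the dural border comparison it was 0.23 and 0.06 and for the layers against the wall 0.13 and 0.03, and every call on the 8 genes in these comparisons held with RLE. Fbln5 had 1 UMI in each library, or 15.9 and 16.8 CPM in barrier cells, set against 119 and 111 CPM in the other layers (log2 fold change -3.08 ± 0.73, SE, edgeR adjusted p = 0.00124). Emilin1 had 2 UMIs in each, or 31.9 and 33.7 CPM, set against 124 and 137 CPM (-2.33 ± 0.60, SE, edgeR adjusted p = 0.00414). Fbln1 was at 255 and 270 CPM, set against 491 and 476 CPM (-1.24 ± 0.29, SE, edgeR adjusted p = 0.00131). With RLE the values were -2.74, -1.99 and -0.89 and all 3 still passed, while with DESeq2 none did (adjusted p between 0.0756 and 0.133). Eln had 1 and 2 UMIs in barrier cells and did not pass.

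The rest of the pathway was followed in 55 genes of 6 lists, of which 40 passed the filter on low counts. In arterial-like cells 10 rose and 2 fell relative to the other endothelium, and the median log2 fold change of the 40 was 0.88. Over all genes tested 4.22% were higher and 5.32% lower, with a median of -0.06. Lox, the lysyl oxidase that cross-links elastin, had 149 and 88.4 CPM in arterial-like cells and 0 UMIs in the other endothelium (edgeR adjusted p = 4.89e-10). Mfap2, a microfibril protein, had 62.0 and 77.4 CPM, set against 2.35 and 0 CPM (edgeR adjusted p = 2.26e-06). Bgn, the proteoglycan biglycan, rose by 4.15 ± 0.27 (SE, edgeR adjusted p = 3.26e-52), and Timp2, an inhibitor of matrix metalloproteinases, by 3.03 ± 0.29 (SE, edgeR adjusted p = 8.25e-23).

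Mural-like cells had 2 of the 40 higher and 7 lower than arterial-like cells, with a median of -0.29, where 4.67% of all genes tested were higher and 5.10% lower, with a median of -0.005. Tgfb3, a TGF-beta ligand, had 95.3 and 198 CPM in mural-like cells and 0 UMIs in arterial-like cells (edgeR adjusted p = 2.74e-05), and Ltbp1, which holds latent TGF-beta in the matrix, 136 and 165 CPM, set against 12.4 and 0 CPM (edgeR adjusted p = 0.00124). Vwa1, a matrix protein of basement membranes, had 0 UMIs in mural-like cells, and 161 and 343 CPM in arterial-like cells (edgeR adjusted p = 8.01e-09). Mmrn2, an endothelial relative of the emilins, had 68.1 and 0 CPM, set against 880 and 917 CPM (edgeR adjusted p = 2.99e-19). The layers had 16 of the 40 genes higher and 7 lower than the vascular wall, with a median of 0.70, where 8.30% of all genes tested were higher and 6.75% lower, with a median of 0.13. Among them Mmrn2 was lower, and Adamtsl5, the proteoglycan gene Dcn (3.05 ± 0.27, SE, edgeR adjusted p = 1.34e-26) and Efemp1, a further fibulin (2.82 ± 0.26, SE, edgeR adjusted p = 9.74e-25), were higher. Adamtsl5 had 59.0 and 58.9 CPM in the layers, set against 0 and 24.8 CPM in the wall. Barrier cells had 159 and 168 CPM of it, and the mean of the other layers was 25.5 and 22.4 CPM, not above the wall in R2.

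Among the fibroblast layers, pial cells had 13 of the 40 genes higher and 7 lower, with a median of 0.52, where 7.11% of all genes tested were higher and 3.91% lower, with a median of 0.06. Ltbp1 was at 102 and 52.2 CPM in pial cells, set against 2.38 and 4.57 CPM (log2 fold change 5.16 ± 0.73, SE, edgeR adjusted p = 6.70e-11). Vwa1, Dcn and Timp3 rose by 4.03, 3.27 and 2.02 (edgeR adjusted p = 1.26e-47, 1.07e-78 and 8.87e-28). Of the cross-linking enzymes 2 could be tested, and Loxl1 rose. Dural border-like cells had 15 higher and 3 lower, with a median of 0.46, where 12% of all genes tested were higher and 4.18% lower, with a median of 0.23. Adamtsl3 (304 and 298 CPM, set against 14.9 and 28.8 CPM), Mfap2 (210 and 214, set against 43.1 and 57.5) and Hmcn1, which encodes the large matrix protein hemicentin (430 and 552, set against 131 and 103), rose, and Vwa1 (6.96 and 14.9, set against 112 and 151) fell. All 4 of the dural border genes had edgeR adjusted p-values of 3.18e-06 or less.

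Inner arachnoid cells had 1 of the 40 genes higher and 8 lower, with a median of -0.41, where 9.68% of all genes tested were higher and 4.34% lower, with a median of 0.08. Hmcn1, Ltbp4, Efemp1 and Adamtsl5 fell by 2.10, 1.52, 1.36 and 1.31 on the log2 scale (edgeR adjusted p = 2.77e-11, 2.77e-07, 2.43e-09 and 0.0272). Barrier cells had 3 higher and 5 lower, with a median of -0.57, where 2.27% of all genes tested were higher and 3.23% lower and the median was itself -0.35. Adamtsl5 (159 and 168 CPM, set against 25.5 and 22.4 CPM), Adamtsl4 (175 and 202, set against 46.5 and 45.5) and Ltbp4, which presents latent TGF-beta and helps elastic fibre assembly (606 and 387, set against 137 and 168), rose in barrier cells (edgeR adjusted p = 2.72e-04, 0.00371 and 4.69e-07). Mfap2 fell, with 0 and 1 UMIs there.

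**Figure D5:**
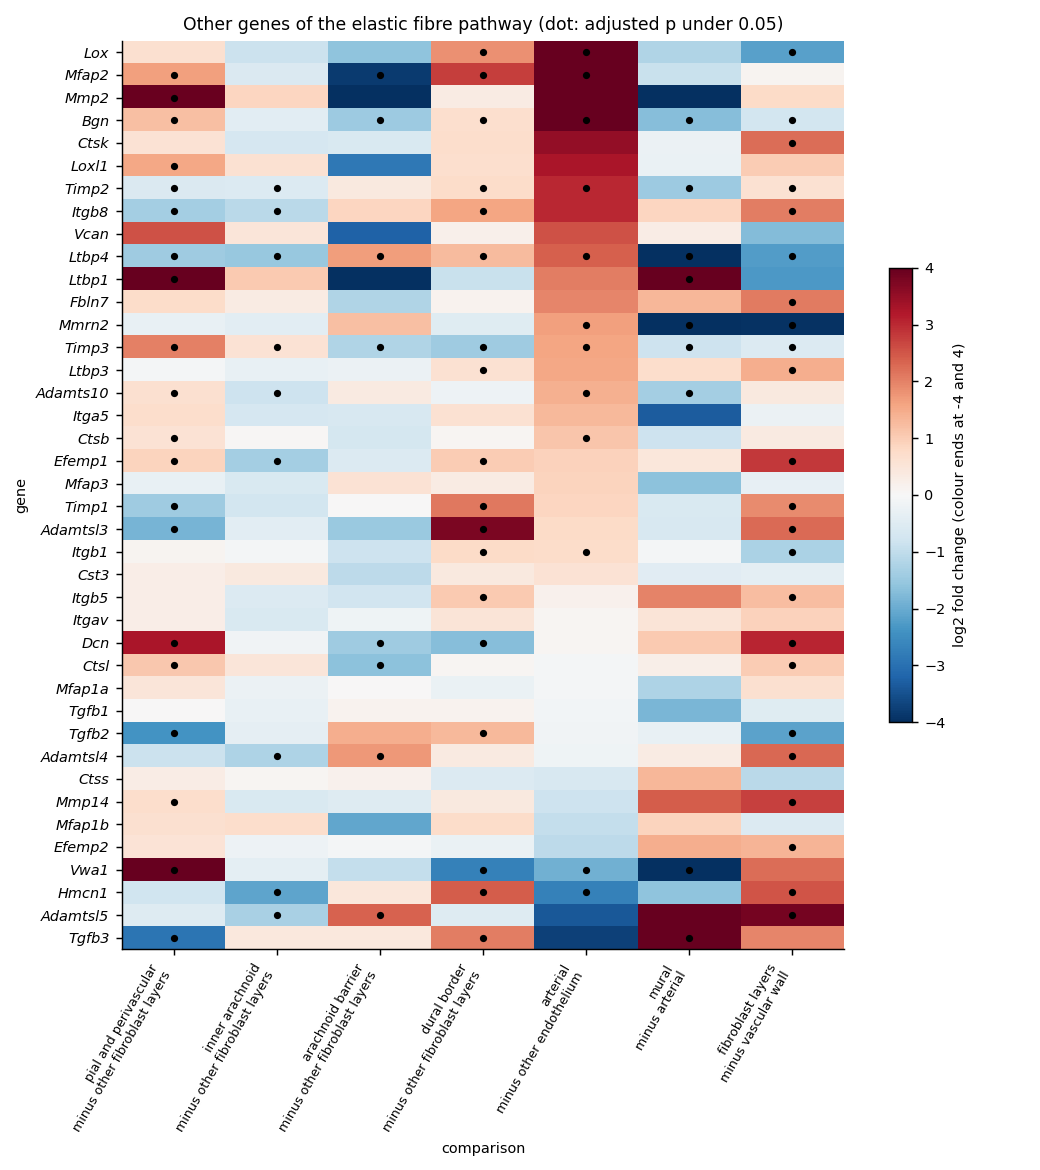
Log2 fold changes of the 40 other pathway genes that could be tested (rows, ordered by the arterial comparison) in the 7 comparisons (columns), red for higher and blue for lower in the class named first, with the colour ending at -4 and 4 and a dot for an edgeR adjusted p under 0.05. Arterial-like cells have 10 genes with a dot that are higher and dural border-like cells 15, while inner arachnoid cells have 8 that are lower.

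Genes with the most similar pattern were taken over the 13 classes of the fit, by Pearson's r of log2(CPM + 1) among 12094 genes. For Eln they were Jag1 (0.96), Aida (0.94) and Hrct1 (0.93), of which Jag1 is among the arterial markers that named the class. For Fbln5 they were Bgn (0.89), Coq9 (0.87) and Mettl7a1 (0.86), and for Fbln2 they were Eln itself (0.90), Hrct1 (0.89) and Cytl1 (0.89). For Fbln1 they were Efemp1 (0.97), Adamts2 (0.97) and Col6a1 (0.97), and for Fbn1 Glis2 (0.96), Htra1 (0.94) and Fstl1 (0.94). For Emilin1 they were Dzip3, Etnk1 and Zfp414 (all 0.94), for Mfap4 Amy1, Adamts15 and Robo1 (all 0.89), and for Mfap5 Calhm5 (0.94), Efemp1 (0.93) and Ctsk (0.92). Within a library some of these were far weaker. In R1 and R2 alone r with Fbln5 was 0.65 and 0.31 for Coq9 and 0.78 and 0.52 for Mettl7a1, with Emilin1 0.89 and 0.27 for Zfp414, and with Fbln1 0.83 and 0.57 for Adamts2. With Mfap4 it was 0.73 and 0.42 for Amy1, 0.63 and 0.61 for Adamts15 and 0.78 and 0.47 for Robo1. The other pairs had 0.70 or more in each library. Over the pooled libraries, among the 8 genes, r was highest for Eln with Fbln2 and for Fbln1 with Emilin1 and Mfap5 (0.90, 0.89 and 0.89), and for Mfap4 with Eln it was 0.03. The 13 points share libraries and differ in depth, so these are descriptions.

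In the mm10 annotation Eln lies on chromosome 5 (134702593 to 134747323, minus strand), Fbln5 on chromosome 12 (101746565 to 101819055, minus), Fbln2 on chromosome 6 (91212455 to 91272540, plus) and Fbln1 on chromosome 15 (85205949 to 85286535, plus). Fbn1 lies on chromosome 2 (125300594 to 125507993, minus), Emilin1 on chromosome 5 (30913402 to 30921277, plus), Mfap4 on chromosome 11 (61485431 to 61488900, plus) and Mfap5 on chromosome 6 (122505845 to 122529290, plus). A gene on the other strand overlaps Eln (Gm30003), Fbn1 (Gm9913) and Mfap4 (Mapk7). Gm30003 had 4 and 3 UMIs and Gm9913 1 and 0 UMIs in the kept cells, and Mapk7 had 98 and 78. Whether counting used strand is not given in the sources used here, so Mfap4 and Mapk7 reads may not be told apart.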

How the data were processed

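The authors deposited, for each library, a matrix of raw UMI counts per gene and barcode with its lists of genes and barcodes, made with Cell Ranger 4.0.0 on mm10 per the file headers and the submitters' processing notes. Ambient RNA removal and the strand setting of the counting are not given in the sources used here. Barcodes under 400 genes or over 10% mitochondrial UMIs were dropped in scanpy 1.11.5. The kept cells were clustered by the Leiden method in a broad and a fine round (resolution 1.0, then 0.8 within each broad class; 2000 variable genes, 30 components, 15 neighbours), without the 8 genes and the pathway lists. Clusters were named from 23 marker lists. The 8 genes and all lists were chosen with earlier results of these data known, and the cutoffs of the naming rule went through several versions after clusters had been seen.

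Counts were summed per class and library where each library held at least 20 cells, which gave 13 classes. The sums were fitted in edgeR 4.0.16 (R 4.3.3) with TMM normalization, its filter on low counts and a term for the library, since every class was taken from the same 2 libraries. The quasi-likelihood test with Benjamini-Hochberg adjustment over 9466 genes gave 7 comparisons, and all adjusted p-values are from it unless DESeq2 1.42.0 is named. A standard error is the log2 fold change divided by the square root of its F. Poisson and binomial intervals are exact at 95%, a count of 0 was taken to allow 3 counts, and both cover counting error only. Named genes were the 8 members, at most 4 called pathway genes per comparison by size of change among those that moved the same way in both libraries and reached 50 CPM in the higher class, and the 3 genes most like each member. Alternatives changed normalization, filters, tool, library term, cell filters, clustering and classes, and left out each library. Those that joined a second arterial-scoring cluster, added further fibroblast clusters or dropped 2 classes were chosen after seeing the data.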

Additional observations from a re-analysis of the deposited data

Results flagged for a closer look

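All 8 genes were also detected in barcodes that the cell filters removed, 4291 in R1 and 3708 in R2, at levels above what a count of 0 allows (0.431 and 0.493 CPM). These barcodes enter no comparison. Eln, the elastin gene, was at 28.0 and 19.1 CPM there and Fbn1 at 15.4 and 21.4 CPM. Fbln1 had 230.1 and 215.6 CPM, Fbln2 3.74 and 4.11 CPM, and Fbln5 34.8 and 32.9 CPM. Emilin1 had 33.1 and 36.1 CPM, Mfap4 13.4 and 11.5 CPM, and Mfap5 8.05 and 8.70 CPM.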

How the results depend on the processing

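Of the gene-level refits counted under 16 alternatives, 692 kept their direction and their side of the threshold, 33 gained a call, 40 lost it and 6 reversed. Refits that changed sign with no call in either fit were left out of these counts, so direction changed more often than the 6 reversals show. The libraries pair every class, so the main fit holds a term for them. With no replicate block, the number of the 8 genes called was 3 in place of 4 for pial cells, where Emilin1 lost its call (edgeR adjusted p = 0.0621), and unchanged in number in the other 6 comparisons (2 for inner arachnoid and for dural border-like cells, 3 for barrier cells, 6 for arterial-like cells, 4 for mural-like cells and for the layers against the wall). For inner arachnoid cells, with 2 calls in the main fit, the count was 1 with DESeq2, at most 5% or 20% mitochondrial UMIs, the 5% highest doublet scores left out or separate random parts of each cell's UMIs. It was 4 with the elastic fibre genes allowed in clustering and 5 with at least 50 cells per class. It was 0 in edgeR with at least 600 genes per cell or at least 1% Malat1 (2 and 1 genes at an unadjusted p under 0.05). For barrier cells it was 0 with DESeq2 (3 at an unadjusted p under 0.05), against 3 with edgeR. For dural border-like cells, with 2, it was 6 with at most 20% mitochondrial UMIs, 5 with the elastic fibre genes allowed, 4 on random parts and 7 with at least 50 cells. For the layers against the wall it was 2 without the highest doublet scores, in place of 4. Fbln1 in pial cells reversed to -0.58 with at most 20% mitochondrial UMIs (edgeR adjusted p = 0.0117). Fbln5 in dural border-like cells, which did not pass in the main fit, reversed to -0.64 with at most 20% mitochondrial UMIs, -0.72 with the elastic fibre genes allowed, -0.93 on random parts and -0.84 with at least 50 cells. Fbn1 reversed to -1.19 for the layers against the wall with at least 50 cells. In these settings, and with at most 5% mitochondrial UMIs, no barrier class entered the fit (with at least 50 cells also no mural class and no capillary-scoring cluster), so the setting and the changed comparison cannot be told apart. Settings with another cell filter, doublet scores included, also formed the classes anew, so the cells left out and the changed classes cannot be told apart. The cause of the other changes was not tested. Values from 1 library each have no test, and Fbln2 in pial cells ranged from -0.008 without R2 to 2.49 without R1. Depth limits the low genes most: Mfap4, Mfap5, Fbln2 outside arteries, and all 8 genes in barrier and mural-like cells rest on few UMIs.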

Other observations

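Of the 1925 cells of the 4 fibroblast layers, 4 had 5 or more Eln UMIs, a minimum chosen after the values were seen. Dural border-like cells with 11 and 5 Eln UMIs lay in R1 and another with 11 in R2, and a pial cell with 13 lay in R1. These cells had 2 or fewer Fbln5 UMIs each, 0 UMIs of the smooth muscle markers and of the arterial gene Gkn3, and between 1 and 3 UMIs of the arterial marker list. Slc47a1, a marker of dural border cells, had 5, 0 and 13 UMIs in the dural border-like cells. Whether they are doublets was not tested.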
